A study of Mus musculus with 4 samples.

Results

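m6A-seq of whole brain from 4-week-old mice gave 23901 intervals that were called as m6A peaks in both of 2 biological replicates, and 511 of them (2.14%, 95% Wilson interval 1.96 to 2.33) lay outside every annotated gene. An interval here is the overlap, of at least 1 bp, between peaks that were called in each replicate separately. It was counted as intergenic when its midpoint was outside all gene bodies of GENCODE M21 on the mouse genome mm10. The values of the peaks were not used to choose the 511 intervals. They fell next to 418 different genes, none of them was on the mitochondrial chromosome, and 4 were on chromosome Y.

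RNA of 4 samples was sequenced, with an m6A immunoprecipitate (IP) and an input for either replicate, all from whole brain of mice labelled C57BL/6J, and the design text gives their genotype as Prrc2a flox/flox without naming a Cre. No group without the floxed allele was compared. RNA fragments were pulled down with an antibody against m6A, and each peak carries 1 value, its Enrichment, the fold of IP reads over input at the peak that the peak caller gave. No processed file of the input samples was used here, and they enter only through that ratio. Replicate 1 listed 38533 peaks and replicate 2 listed 30134, with no strand, read count, summit or p-value, so the sequencing depth behind each value is unknown. The labels list the molecule as total RNA, while the study's protocol describes purified mRNA, and the study calls the replicates biological. As a check of the tissue, shared intervals were present in exons of 7 of 8 neuronal, 4 of 4 astrocytic, 5 of 5 oligodendrocytic and 4 of 4 microglial marker genes, in none of 8 markers of liver, muscle and pancreas, and in 1 of 2 of red blood cells (Hbb-bs).

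N6-methyladenosine is placed on nascent RNA by a methyltransferase complex with Mettl3 as its catalytic subunit, mostly at adenosines in a GGAC-like context. In mRNA the mark is concentrated near stop codons and in 3′ UTRs, and reader proteins bind it there. In brain many genes use distal polyadenylation sites and so carry long 3′ UTRs, and a peak outside a gene body can lie in a part of a transcript that one annotation holds and another does not. For that reason each interval was also placed on the RefSeq annotation of the same genome build.

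The sequences shown first were picked for the pattern that the results turn on, the 5 bases GGACT on the strand of the neighbouring gene. Of the 255 intervals downstream of genes, 101 (39.6%) held it. The interval at chr14:119874610-119875692, 5336 bp past the annotated end of Hs6st3, a heparan sulfate sulfotransferase on the plus strand, lay outside GENCODE and RefSeq genes alike. It was among the widest of all intergenic intervals, and held GGACT 5 times on the plus strand and 0 times on the minus strand. These are its 5 sites with 12 bases on either side, 5′ to 3′, in GRCm38.p6 (mm10) coordinates, with GGACT in capitals.
past Hs6st3, chr14:119874621-119874649, plus strand: atcggagactgaGGACTatggaccacata
past Hs6st3, chr14:119875323-119875351, plus strand: agaggatcctgaGGACTggcctgttgtga
past Hs6st3, chr14:119875467-119875495, plus strand: tctccactggaaGGACTgcaactgtctat
past Hs6st3, chr14:119875501-119875529, plus strand: gcacgctgacagGGACTctctaagatcta
past Hs6st3, chr14:119875560-119875588, plus strand: ggccagagatcaGGACTacaaatcctgtg

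The Enrichment of this interval was 6.67 in replicate 1 and 3.95 in replicate 2. Windows of the same kind are given for intervals that RefSeq places in UTRs and that were picked for GGACT on the gene's strand: downstream of Fan1, a DNA repair nuclease, of Kiss1r, the kisspeptin receptor, of Dlgap2, a scaffold protein of the postsynaptic density, and of Rnf130, an E3 ubiquitin ligase, and upstream of Nrg1, a growth factor ligand of ErbB receptors. Other intervals in RefSeq 3′ UTRs had it on the opposite strand alone, such as those 150 bp past Nt5c1a and 1255 bp past Cmip, or on both strands, such as those 1780 and 2479 bp past Fstl4. In each line the sequence reads on the strand of the gene named. The Rnf130 interval lay nearer to the pseudogene Gm12194 on the minus strand. Counts by the nearest gene, given below, therefore score its GGACT as on the other strand.
past Fan1, chr7:64346428-64346456, minus strand: tgggctccacttGGACTtgtcctgacacc
past Kiss1r, chr10:79923588-79923616, plus strand: caggggccctggGGACTgaactcttccca
past Kiss1r, chr10:79923641-79923669, plus strand: caagcgcttcatGGACTgaatcatttcct
past Dlgap2, chr8:14852016-14852044, plus strand: aagagcacagatGGACTcagacctgcagc
past Rnf130, chr11:50125374-50125402, plus strand: acgctgtgcactGGACTtcctctcaccag
before Nrg1, chr8:32884889-32884917, minus strand: cgcagcccactcGGACTgcagcctagcag
before Nrg1, chr8:32884597-32884625, minus strand: actccacacaaaGGACTgttccccgccga

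Another 3 windows come from the gap between the ends of G3bp1, an RNA-binding protein of stress granules on the plus strand, and Glra1, a glycine receptor subunit on the minus strand, where 6 intervals followed each other in neither annotation's genes. Each window is shown on the strand of the gene whose end is nearer. Members of this run held GGACT on the other strand at as many sites as are shown here. Their windows are chr11:55507975-55508003 on the minus strand, and chr11:55512335-55512363 and chr11:55513708-55513736 on the plus strand. The run thus did not lean to either strand.
past G3bp1, chr11:55509060-55509088, plus strand: gatgcgtatctcGGACTccggcgcctttc
past Glra1, chr11:55512219-55512247, minus strand: gtggagagaatgGGACTgtatctgatctc
past Glra1, chr11:55513841-55513869, minus strand: agagcctctttgGGACTgtaaggaactgt

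The intervals divided evenly between both ends of genes, with 255 (49.9%, Wilson interval 45.6 to 54.2) downstream of the nearest gene and 256 upstream. Where the peaks in both replicates were clear of genes, the share downstream was 56.2% (51.2 to 61.1). No background for these shares was computed. Downstream and upstream intervals lay at different distances. Over all 511 the median distance was 899 bp (734 to 1081), and it was 1582 bp for those whose peaks in both replicates were clear of genes. The median distance from midpoint to gene edge was 1602 bp downstream (95% order-statistic interval 1289 to 2108) and 524.5 bp upstream (445 to 618). Within 1000 bp of the edge lay 93 of the 255 downstream intervals (36.5%, 30.8 to 42.5) and 176 of the 256 upstream intervals (68.8%, 62.8 to 74.1). These intervals count the members as separate units and cover only that counting error. Per 100 bp of distance, both sides held most intervals next to the gene, with 35 upstream and 15 downstream within 100 bp. Between 100 and 500 bp the numbers per 100 bp were 21 and 11.5, and between 2000 and 5000 bp they were 0.633 upstream (19 intervals) and 2.4 downstream (72 intervals). The fall with distance was thus steeper upstream, and from 1000 to 10000 bp each bin held more downstream than upstream intervals. Intervals whose peaks in both replicates were clear of genes lay at least 148 bp from the edge. The 35 and 15 intervals within 100 bp thus all came from a peak that reached a gene body. Past 10000 bp there were 37 intervals in all, and past 50000 bp there were 7.

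**Figure D1:**
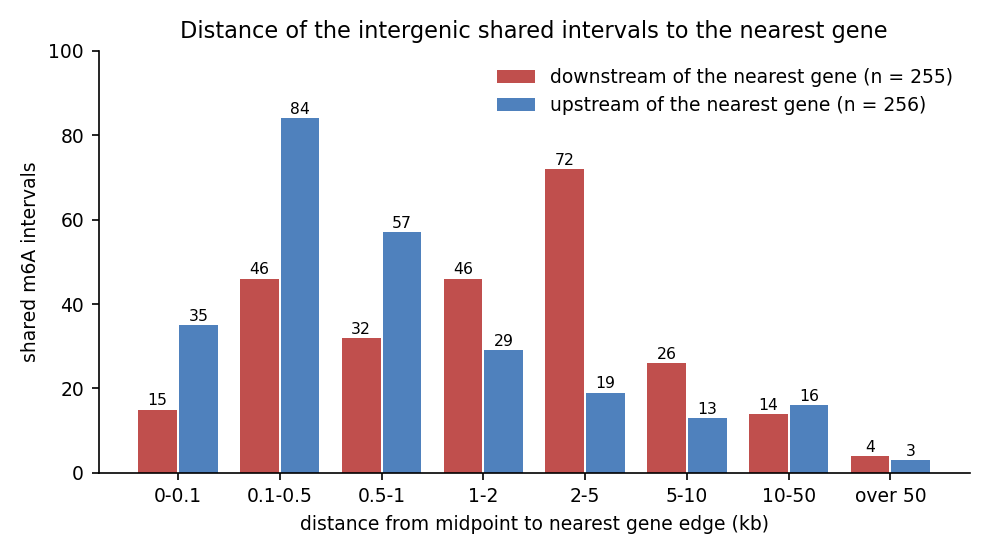
Number of intergenic shared m6A intervals (y axis) by distance from their midpoint to the nearest gene edge in kb (x axis, unequal bins), downstream (red, n = 255) and upstream (blue, n = 256) of that gene, with the count above each bar and bins that widen to the right, so heights are not densities. Upstream outnumber downstream intervals up to 1 kb (84 against 46 in the second bin), and downstream outnumber upstream ones from 1 to 10 kb (72 against 19 between 2 and 5 kb).

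Base composition went with the upstream distance. The median GC content was 67.1% in the 35 intervals within 100 bp upstream and 63.1% in the 84 between 100 and 500 bp, and it was 50.2% in the 29 between 1000 and 2000 bp. Downstream it stayed between 47.0% and 51.0% in the 7 bins out to 50000 bp. The 4 downstream intervals past 50000 bp had a median of 59.1%. Up to 1000 bp from the gene, GC content was thus higher on the upstream side. All intervals within 100 bp came from a peak that reached a gene body. The observed over expected CpG ratio, which is high in CpG islands, had a median of 0.490 upstream, 0.185 downstream and 0.350 in shared intervals inside genes. The median Enrichment by upstream distance, in the 6 bins divided at 100, 500, 1000, 2000, 5000 and 10000 bp, was 2.43, 2.42, 2.85, 2.84, 3.09 and 3.80 in replicate 2, and 3.24, 3.48, 4.05, 3.60, 4.50 and 4.35 in replicate 1. Downstream it was 3.16, 2.87, 2.54, 2.70, 3.17 and 3.38 in replicate 2. The values were thus higher far from gene starts than next to them, with no steady rise in replicate 1, while downstream they were lowest between 500 and 1000 bp. The part of GC content in these values was not tested.

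The nearest gene was protein-coding for 362 of the 511 intervals (70.8%). Among the others, 46 lay next to lincRNAs and 35 next to processed pseudogenes, 28 of the latter downstream. Of the 362 intervals near protein-coding genes, 295 (81.5%, 77.2 to 85.2) had a neighbour with a further shared interval inside its own body, against 40 of 149 (26.8%, 20.4 to 34.5) near other genes. Counted by gene, 250 of the 300 protein-coding neighbours (83.3%) held a shared interval in their body, beside 10160 of all 21951 protein-coding genes (46.3%). That background includes genes with little RNA in brain. Between 2 convergent gene ends lay 127 intervals, between 2 divergent starts 118, and between an end and a start 266, of which 128 were nearer to the end.

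RefSeq annotated a gene at most of these positions. The midpoint lay in a RefSeq exon for 279 of 511 intervals (54.6%, 50.3 to 58.9), in a RefSeq intron for 32 and in a pseudogene for 5. The remaining 195 (38.2%, 34.1 to 42.4) were outside RefSeq genes as well. The kind of exon went with the side: 107 of the 117 intervals in RefSeq 3′ UTRs were downstream of the nearest GENCODE gene, and 78 of the 81 in RefSeq 5′ UTRs were upstream. For 87 of the 117 the RefSeq gene had the same symbol as the nearest GENCODE gene. Curated RefSeq transcripts held 77 of the 117 and predicted models 40. Exons of non-coding transcripts held a further 70 intervals, 39 downstream and 31 upstream, and coding exons held 11.

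**Figure D2:**
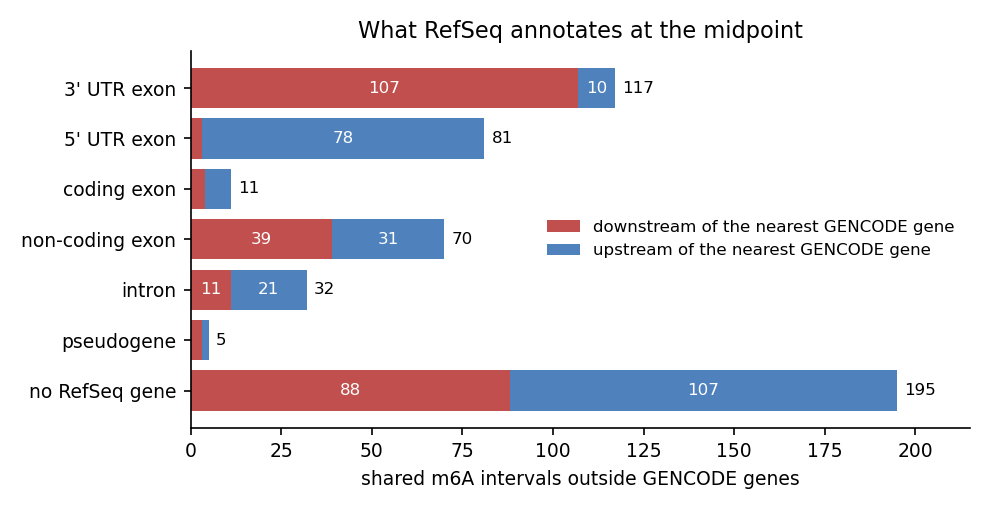
RefSeq feature at the midpoint of each of the 511 intergenic intervals (y axis) against the number of intervals (x axis), split into those downstream (red) and upstream (blue) of the nearest GENCODE gene, with the total at the end of each bar. The 3′ UTR bar is almost wholly red (107 of 117), the 5′ UTR bar almost wholly blue (78 of 81), and 195 intervals have no RefSeq gene.

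The 117 intervals in RefSeq 3′ UTRs belonged to 84 RefSeq genes, and 22 of these held at least 2 of the intervals. Rnf130 held 6, Camk4, a calcium/calmodulin-dependent kinase, held 4, and 3 each lay in Dlgap2, Syn3 (synapsin III), Fstl4, Cmip and Scube1. Genes of synapses and neuronal adhesion were among those with 2, such as Nlgn1 (neuroligin-1) and Cadm1. Syn3, Nlgn1 and Cadm1 were named after their values were seen, and no test was made of what kinds of genes these 84 are.

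The strongest intervals, ranked by the lower of both Enrichments, were of several kinds. First came chr7:60922761-60923074, with 12.1 in replicate 1 and 8.44 in replicate 2, whose midpoint was 5 bp past the end of the lincRNA Gm44643 in a gap of 11 bp before Gm44644, so that most of its bases were in these genes. RefSeq has an exon of the non-coding RNA Gm29729 there. The interval at chr7:61017549-61017893, 56336 bp upstream of Gm44643 in an exon of the RefSeq non-coding RNA A230006K03Rik, had 10.1 and 4.74. These 2 intervals aligned to each other with 88.7% identity over 302 bases, and repeats masked in the genome made up 68.5% and 67.5% of them. Uniquely mapped reads were kept by the authors, and how many reads such copies lost was not tested.

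In 3′ UTRs of RefSeq the strongest intervals were those of Fan1, Ylpm1, Kiss1r and Kcna1. The Fan1 interval (chr7:64346308-64346895, midpoint 157 bp past the GENCODE end) had an Enrichment of 5.45 and 6.53 in replicates 1 and 2, and held GGAC 11 times on the strand of Fan1 against 1 time on the other. The Ylpm1 interval, 3724 bp past the end, had 7.00 and 5.44. Both intervals were picked for high Enrichment in both replicates. Values far above the medians of shared intervals inside genes, 3.03 and 2.33, thus follow from the ranking. The Kiss1r interval (chr10:79923508-79923797, 1379 bp) had 5.26 and 5.25. The Kcna1 interval (chr6:126638715-126640031, 1024 bp past the end of this voltage-gated potassium channel gene) was 1317 bp wide, with 5.25 and 4.96, and held GGAC 10 times on the strand of Kcna1 and 4 times on the other. For Fan1 and Kiss1r no shared interval had its midpoint inside the GENCODE gene body, while Ylpm1 had 5 and Kcna1 had 4. The Fan1 interval itself reached into the body of Fan1.

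Upstream of genes the strongest intervals were those of Polr3k, Gm48408, Gpt2 and Nrg1. The Polr3k interval (chr2:181862503-181862828, 1672 bp upstream of this RNA polymerase III subunit gene) had 5.37 and 6.05, was repeat over its full length, and matched a transcript of Gm42887 with 94.2% identity over 99.1% of its bases. The Nrg1 interval (chr8:32884385-32885003, 665 bp upstream) had 4.999 and 4.87 and lay in the 5′ UTR of a predicted RefSeq transcript of Nrg1, with GGACT 2 times on the strand of Nrg1 and 0 times on the other. The Gpt2 interval (chr8:85490595-85490923, 1817 bp upstream of this mitochondrial alanine aminotransferase gene) had 5.02 and 6.00 and was in no RefSeq gene. All 5 of its GGAC were on the strand opposite to Gpt2 and in a short tandem repeat, with 3 of them in a stretch of 30 bases. Its central 200 bases are shown on that strand, with GGAC in capitals.
before Gpt2, chr8:85490660-85490859, minus strand: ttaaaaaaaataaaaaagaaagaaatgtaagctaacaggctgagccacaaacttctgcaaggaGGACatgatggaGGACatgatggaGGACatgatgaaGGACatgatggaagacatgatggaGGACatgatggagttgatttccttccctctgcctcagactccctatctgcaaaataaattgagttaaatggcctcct

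Near non-coding genes, the interval past 2900060N12Rik (389 bp, in an exon of the RefSeq transcript of the same gene) had 9.15 and 5.25. The interval past CR974462.6 (chr17:33982500-33983136, 41 bp, an exon of AA388235 in RefSeq) had 5.80 and 5.03 and held GGACT 4 times on the strand of the gene and 0 times on the other. The processed pseudogene Gm44954 had an interval 2124 bp past its end, with 5.25 and 4.95, in an exon of the predicted RNA Gm38983. In all 3 the RNA on which RefSeq places the interval is non-coding.

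Over all 511 intervals the median Enrichment was higher than inside genes in both replicates. It was 3.61 (3.46 to 3.77) in replicate 1 and 2.80 (2.68 to 2.94) in replicate 2, against 3.03 (3.01 to 3.05) and 2.33 (2.32 to 2.35) for the 23390 shared intervals inside genes. An Enrichment of at least 2 in both replicates was reached by 416 of 511 (81.4%, 77.8 to 84.5), beside a background of 63.1% of all shared intervals. Replicate 1 gave the higher value for 376 of 511 (73.6%, 69.6 to 77.2), beside 77.6% of all shared intervals. The order of intervals was less alike between replicates: Spearman's rho was 0.43 over the 511 intervals and 0.61 over those inside genes, as a description, since the intervals of a replicate share 1 library and some share a peak. Repeat sequence went with the values. Intervals with at least 50% repeat bases (92 of 511, 18.0%, against 2.26% inside genes) had medians of 4.18 and 3.29, while the other 419 had 3.48 and 2.65, still above those inside genes. The part of repeats in the difference was not tested further, and no test across intervals was run, because intervals are not replicates. Only regions that passed the peak caller's cutoff in both replicates have a value here. The part of that cutoff in the difference was not tested, and the lists give no input depth.

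**Figure D3:**
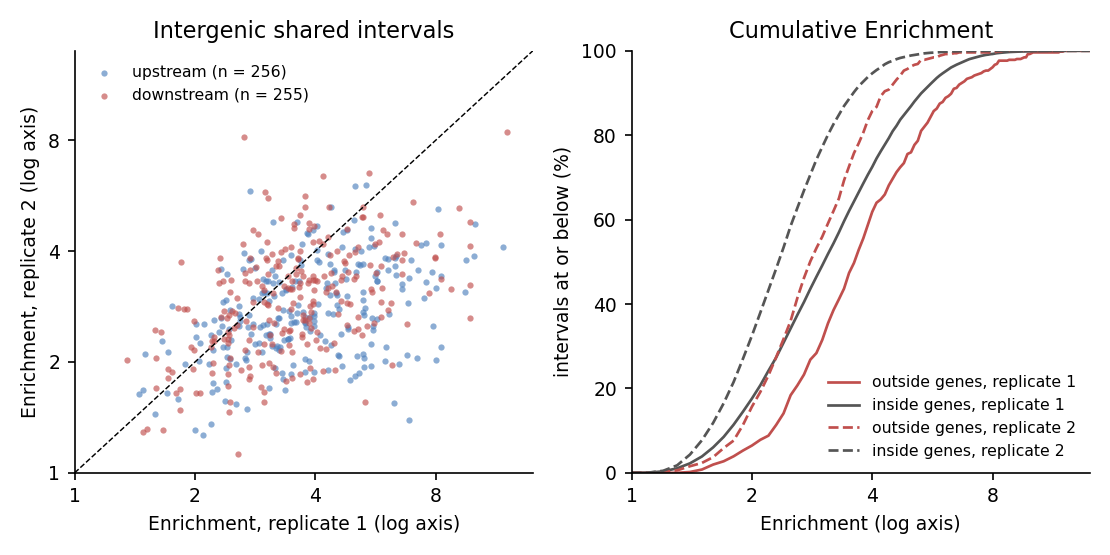
Left, Enrichment (IP over input) of each intergenic shared interval in replicate 1 (x axis) and replicate 2 (y axis), both log axes, downstream (red) and upstream (blue) of the nearest gene, with the line of equal values dashed. Right, cumulative share of intervals (y axis, %) at or below a given Enrichment (x axis, log) outside (red) and inside (grey) genes in replicate 1 (solid) and 2 (dashed); the red curves lie to the right of the grey ones in both replicates, with medians of 3.61 against 3.03 and 2.80 against 2.33.

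Enrichment was also read by class. Intervals in RefSeq 3′ UTRs had medians of 3.30 (3.03 to 3.64) in replicate 1 and 2.60 (2.34 to 2.89) in replicate 2, and those in 5′ UTRs had 3.33 (2.96 to 3.73) and 2.53 (2.29 to 2.70). Non-coding exons had 3.50 (3.07 to 3.94) and 3.20 (2.85 to 3.46). The 32 in RefSeq introns had 4.18 (3.77 to 5.61) and 3.13 (2.68 to 3.77). The 195 intervals outside both annotations had 3.89 (3.53 to 4.10) and 2.93 (2.71 to 3.10). Among these called peaks, those with no annotation were thus not the weakest class. In replicate 1 the 95% interval of the intronic median lay above those of both UTR classes, and those of the other 4 classes overlapped each other. In replicate 2 that of the 5′ UTRs lay below those of the non-coding exons and of the intervals outside both annotations, the latter by 2.70 against 2.71. These limits treat intervals as separate units, although some share a peak, so they are no test between classes. Intervals whose nearest gene held no other shared interval had medians of 3.67 and 3.21, against 3.56 and 2.64 where it did.

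The median width of the intergenic intervals was 293 bp (275 to 307), against 335 bp (333 to 337) inside genes. Their widths ran from 21 to 1693 bp. The widest, chr1:75505683-75507375, lay in the 624 bp gap between divergent starts next to Obsl1, a cytoskeletal adaptor gene on the minus strand, and reached into the gene bodies on its sides. Its Enrichment was 4.77 and 3.35, and it held GGACT 5 times on the plus strand and 0 times on the minus strand, that is, opposite to Obsl1. Next came an interval of 1616 bp, with its midpoint 12 bp upstream of Gm14066 (5.57 and 2.50), in an exon of a predicted transcript of Ism1, followed by the Kcna1, Hs6st3 and Qser1 intervals of 1317, 1083 and 1040 bp. In 80 of the 511 intervals some bases reached a gene body, and 132 came from a peak that did.

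GGACT was more frequent on the strand of the neighbouring gene than on the other strand downstream of genes, and not upstream of them. The files give no strand, so the motifs GGAC and GGACT were searched on both strands of the genome sequence, each GGACT being also a GGAC, and a match says only that the letters are there. Downstream, 101 of 255 intervals (39.6%, 33.8 to 45.7) held GGACT on the strand of the nearest gene and 54 (21.2%, 16.6 to 26.6) on the other strand. Counted by interval, 74 had it on the gene's strand alone and 27 on the other strand alone. The 6 intervals in the RefSeq 3′ UTR of Rnf130 were scored here by the strand of Gm12194, their nearest gene. Upstream the counts were 76 of 256 (29.7%, 24.4 to 35.6) on the gene's strand and 89 (34.8%, 29.2 to 40.8) on the other, and these Wilson intervals overlap. Of the upstream intervals, 48 had GGACT on the gene's strand alone and 61 on the other strand alone. GGAC itself was present on the gene's strand in 73.3% and on the other in 56.1% of downstream intervals, and in 69.1% and 68.4% of upstream intervals. Of the 237 intervals within 10000 bp downstream, 75.1% (69.2 to 80.2) held GGAC on the gene's strand.

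Intervals inside a single protein-coding gene, 19931 in all, held GGACT on the gene's strand in 42.0% and on the other strand in 30.5%. Among intervals of 250 to 350 bp, the shares were 40.5% and 14.3% for 84 downstream intervals, 34.2% and 23.9% for 6631 inside genes, and 27.1% (19) and 21 of 70 for upstream intervals. For comparison, 26.1% and 26.0% of 32851 RefSeq promoter sequences of 300 bases held it on the strand of the gene and on the other. Counted on either strand, 51.9% of the intergenic intervals and 57.8% of those inside genes had GGACT, and 86.3% and 91.5% had GGAC.

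GGACT was also counted by annotation class. In RefSeq 3′ UTR exons with 1 strand, 48 of 114 intervals (42.1%, 33.4 to 51.3) held GGACT on the strand of the exon and 23 (20.2%, 13.8 to 28.5) on the other. In non-coding exons the numbers were 36 of 69 (52.2%, 40.6 to 63.5) and 17 (24.6%, 15.99 to 36.0). In 5′ UTR exons they were 22 and 22 of 78. Downstream intervals outside both annotations, where neither annotation has a gene, gave 35 of 88 (39.8%, 30.2 to 50.2) and 19 (21.6%, 14.3 to 31.3). The Wilson intervals of this class overlap slightly, but both shares come from the same regions. Of these regions, 25 had GGACT on the gene's strand alone and 9 on the other alone. Upstream intervals outside both gave 30 and 38 of 107, with 19 and 27 on 1 strand alone. Whether strand shares differ between these classes was not tested.

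**Figure D4:**
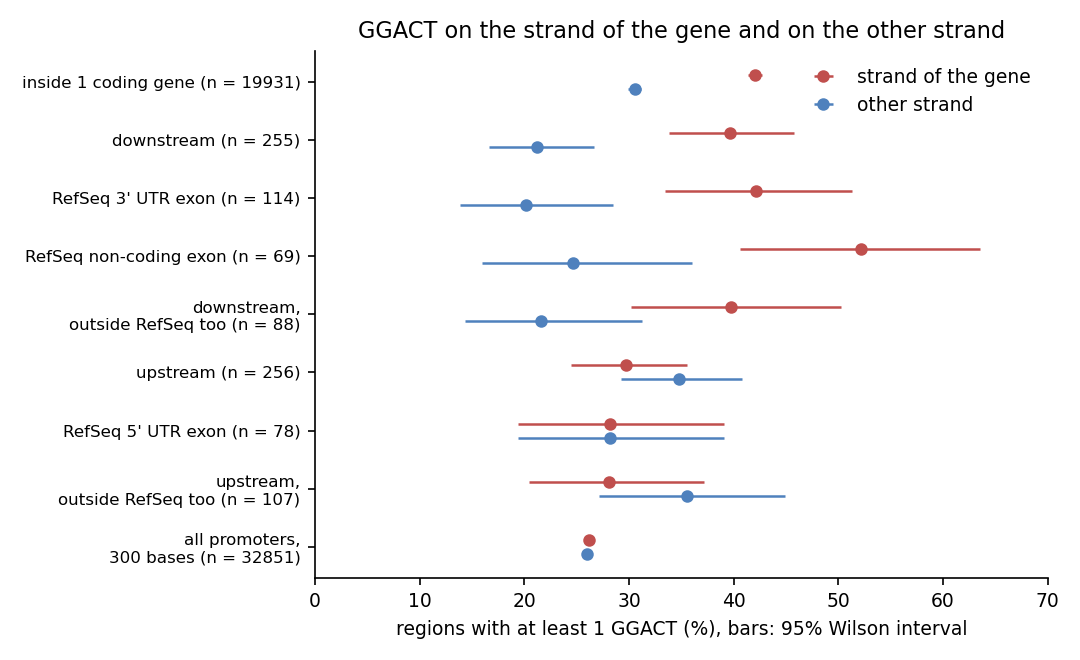
Share of regions with at least 1 GGACT (x axis, %) on the strand of the gene or exon (red) and on the other strand (blue), with 95% Wilson intervals, for shared intervals inside 1 coding gene, for classes of intergenic intervals and for 300-base promoters (y axis, n in brackets). Red lies right of blue in the downstream, 3′ UTR and non-coding exon classes (39.6% against 21.2% downstream), and the colours overlap in the upstream and 5′ UTR classes and in promoters.

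Part of the intervals came in runs. With midpoints linked at up to 10 kb, 165 of 511 (32.3%, 28.4 to 36.5) had at least 1 intergenic neighbour, in 70 runs, 55 of them pairs and 10 of them triplets. Among all 1741 peaks of replicate 1 outside genes, without replicate 2, the share was 53.6%, and among the 615 of replicate 2 it was 32.7%. No background for this share was computed. Some runs rested on a single broad peak of 1 replicate: 28 intervals shared a replicate 1 peak with another interval and 8 shared a replicate 2 peak. Members of runs lay farther from genes than lone intervals, with a median distance of 1582 bp (1350 to 2060) against 568.5 bp (504 to 698).

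The longest runs had 6 intervals, each from its own peak in both replicates. One spanned chr11:50119845-50125487, between 15417 and 20600 bp past the GENCODE end of Rnf130 and nearer to the end of the pseudogene Gm12194, and all 6 midpoints were in the 3′ UTR of a curated RefSeq transcript of Rnf130. The interval 17140 bp past the end had the highest values of this run, 5.68 and 3.48, and the one at 16535 bp had 1.83 and 1.48. Both replicates had their highest value at 17140 bp and their second highest, 3.64 and 3.20, at 15417 bp. On the plus strand, that of Rnf130, the 6 intervals held GGAC 5, 1, 1, 4, 0 and 3 times in order of position, and on the minus strand 3, 1, 3, 1, 1 and 0 times.

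The other run of 6 lay in the 9399 bp between the ends of G3bp1 and Glra1, with 3 intervals nearer to each gene. In order from G3bp1, the Enrichment in replicate 1 was 1.91, 2.41, 2.24, 3.50, 3.67 and 4.64. In replicate 2 it was 2.79, 2.41, 2.34, 3.16, 3.27 and 3.35. The 3 intervals nearer to Glra1 were higher than the 3 nearer to G3bp1 in both replicates. The last of them lay 401 bp past the end of Glra1. Glra1 itself held 3 shared intervals in its body and G3bp1 held 1.

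Past Nt5c1a, a cytosolic 5′-nucleotidase, 5 intervals lay at 150, 811, 1553, 2461 and 3632 bp. Their Enrichment was 4.88, 2.30, 4.72, 5.03 and 3.07 in replicate 1, and 2.87, 3.29, 3.76, 3.97 and 2.36 in replicate 2. The first was in a curated RefSeq 3′ UTR and the others in an exon of a predicted non-coding transcript of the same gene. No shared interval had its midpoint inside the GENCODE gene body, into which the first of the 5 reached. The interval at 2461 bp was the highest of the 5 in both replicates, with 4.88 and 5.03 close to each other in replicate 1, and the replicates ordered the first 2 intervals in opposite ways.

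**Figure D5:**
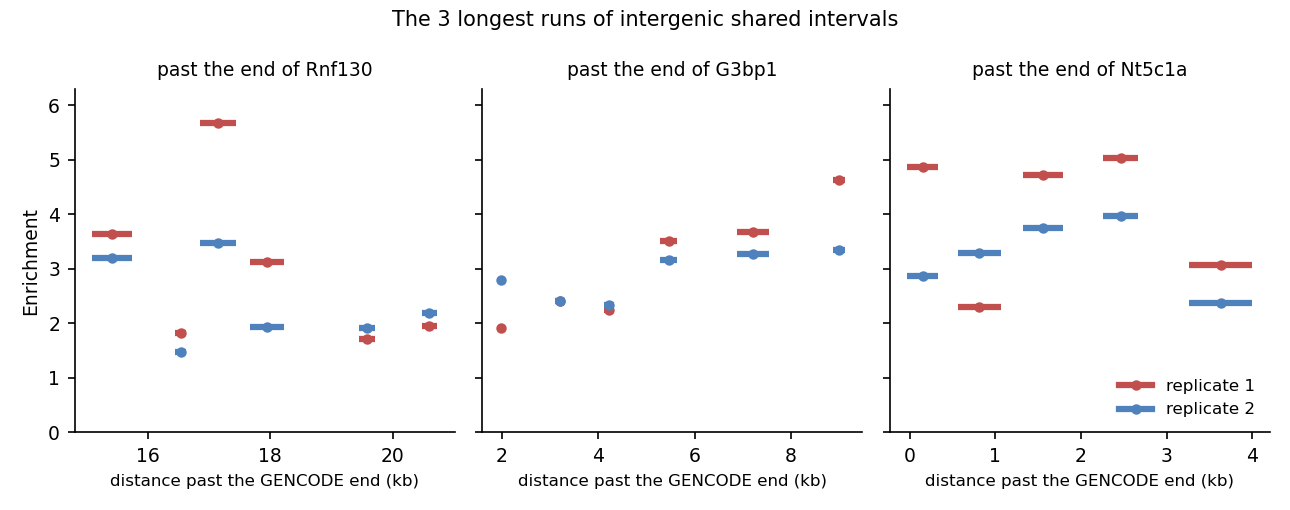
Enrichment (y axis) of the intervals in 3 runs against the distance of their midpoint past the GENCODE end of Rnf130, G3bp1 and Nt5c1a in kb (x axis), replicate 1 in red and replicate 2 in blue, with bars as wide as the interval. The values of the Rnf130 run range from 1.48 to 5.68, the 3 intervals on the Glra1 side of the 9399 bp gap past G3bp1 lie above the 3 others in both replicates, and those past Nt5c1a stay between 2.30 and 5.03.

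A run of 4 past Camk4 (2377, 2971 and 3633 bp, and 1 nearer to Stard4, a cholesterol transfer protein gene) lay in the curated 3′ UTR of Camk4 in RefSeq, with Enrichment from 1.71 to 3.96 in replicate 1 and from 1.80 to 3.13 in replicate 2. The 4 intervals past Car5b, a mitochondrial carbonic anhydrase gene, were cut from 1 replicate 1 peak with an Enrichment of 9.76. In replicate 2 they were separate peaks of 2.63, 4.80, 3.23 and 4.13, and repeats made up 92.4% to 100% of each. Upstream of Gm48408, a transcript that GENCODE marks as still to be tested, 3 intervals from separate peaks had 6.31, 2.76 and 8.09 in replicate 1 and 4.78, 3.81 and 5.20 in replicate 2. Runs thus differed in how far they rested on separate peaks. Past the end of Dlgap2, 3 intervals at 2946, 3678 and 4277 bp had 3.15, 1.60 and 6.40 in replicate 1 and 2.55, 2.05 and 3.93 in replicate 2, and the outermost, with 2 GGACT on the strand of Dlgap2, was the highest in both.

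Within 10 kb past their end, 183 genes had at least 1 interval and 38 had at least 2. Besides the genes of the runs above, Fstl4, Cmip and Scube1 had 3 each, all in RefSeq 3′ UTRs of the same gene. The 3 intervals past Cmip, at 87, 1255 and 1934 bp, had 2.32, 2.44 and 1.66 in replicate 1 and 2.64, 1.56 and 1.31 in replicate 2. The 3 past Scube1 were cut from 1 replicate 1 peak of 2.97, and had 1.56, 1.66 and 2.24 in replicate 2 at 566, 828 and 1317 bp. Both genes were below the median of the intergenic intervals in replicate 2 at every position.

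The farthest interval from any gene lay 139805 bp upstream of Adgrb1, a brain adhesion receptor gene, at chr15:74376280-74376500, with 5.97 and 3.82. RefSeq places it in an intron of the non-coding gene Gm19859. A pair 81694 and 80988 bp past Gm49678 (3.85 and 2.55, 3.85 and 4.60) lay in an intron of Robo2, an axon guidance receptor gene, came from 1 replicate 1 peak and was repeat over its full length. The interval 92548 bp past AC162373.1 was in the 5′ UTR of a curated RefSeq transcript of Dtna, a dystrobrevin gene, with 1.36 and 2.03. The interval 58455 bp past the snRNA gene Gm22605 (2.23 and 2.28) matched a transcript of Spsb3 with 96.4% identity over 77.5% of its bases. Of the 5 farthest, 4 were thus within a RefSeq gene and 1 resembled a transcript from elsewhere. The 37 intervals over 10000 bp from any gene had medians of 3.85 (3.20 to 4.19) and 3.35 (2.93 to 3.77).

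A match to an annotated transcript from elsewhere, with at least 90% identity over at least 50% of the interval, was found for 40 of the 511 (7.83%, 5.80 to 10.5), and 35 of these had at least 50% repeat bases. Of the other 5, the interval 42 bp past the pseudogene Gm9800 (chr14:8799778-8800139, 5.002 and 3.37) was identical over its full length to a transcript of Ptma, prothymosin alpha. The interval chrX:64497817-64498069, 1286 bp past the snoRNA gene Gm24598 (1.48 and 1.29), matched Rian, an imprinted non-coding RNA, with 97.3% identity over its full length. Both were named after their values were seen. Reads of the parent gene and of such a copy may not be told apart.

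Of the 511 intervals, 2 lay within 500 kb of any of 27 imprinted genes searched, and each is given with the nearest of these genes. The interval chr7:59197588-59198220, 30846 bp from Ube3a, an E3 ubiquitin ligase gene imprinted in neurons, had 5.65 and 4.19, was 62.1% repeat, and held GGACT 2 times on the minus strand, that of its nearest gene Gm44742, and 0 times on the plus strand. The interval 4868 bp from Meg3 had 2.22 and 1.76 and was in the 3′ UTR of a predicted RefSeq transcript of Rtl1 on the opposite strand.

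Peaks outside genes were shared between replicates to unequal degrees. Replicate 1 listed 1741 peaks with a midpoint outside genes (4.52% of its peaks), of which 500 (28.7%, 26.6 to 30.9) overlapped a replicate 2 peak, beside 60.0% of all replicate 1 peaks and 61.5% of those inside genes. Replicate 2 listed 615 (2.04% of its peaks), of which 491 (79.8%, 76.5 to 82.8) overlapped a replicate 1 peak, beside 77.0% of all its peaks and 76.9% of those inside genes. The low share of replicate 1 thus went with its larger number of intergenic peaks, 1741 against 615. Depth and the strength of the 2 IPs, which could not be read from the lists, cannot be told apart here.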

How the data were processed

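m6A IP and input RNA of 4 samples from mouse whole brain were sequenced, and a peak list was deposited for each of the 2 IP samples. Per their methods, the authors trimmed reads with Cutadapt and Trimmomatic, aligned them to mm10 with TopHat (2.0.9 in the submitters' processing notes), kept uniquely mapped reads and called peaks with MACS2 against each replicate's own input, without a model, with all duplicates kept and at an FDR cutoff. Replicates were not pooled. The deposited Enrichment is a linear fold of IP over input that the authors' peak caller computed. It was used as given. The lists hold no counts, so depth and its precision are unknown, and confidence intervals given here cover only the number of intervals.

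Lists were intersected (at least 1 bp) and placed on GENCODE M21 and on RefSeq for GRCm38.p6 in Python 3.11.15 (numpy 2.4.6, pandas 2.3.3, scipy 1.17.1, pysam 0.24.0, matplotlib 3.10.9, samtools 1.23.1). As a check, bedtools 2.31.1 gave the same counts of 23901 shared and 511 intergenic intervals. Repeats were the soft-masked bases of the genome. Transcript matches came from blastn 2.17.0 at 90% identity over 50% of the interval. Scripts were tested on simulated data. Shares have 95% Wilson intervals and medians 95% order-statistic intervals. Groups came from the sample labels. With 2 replicates of 1 condition no test was made.

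Intervals named were the 15 strongest by the lower Enrichment, the 6 largest runs, the 10 genes with most intervals within 10 kb downstream, the 5 farthest, the 5 widest and those within 500 kb of imprinted genes, and others are said to be chosen after their values were seen. The 511 intervals and all lists were chosen with earlier results of these data known. Alternatives changed the overlap, the Enrichment cutoff, the gene set, the linking distance, the motif, the match and the replicates used.

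The sequences of 1 pair of intervals are not reported here.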

Additional observations from a re-analysis of the deposited data

How the results depend on the processing

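The results above were recomputed under other settings, which gave 82 alternative values of 11 results. Of these values, 58 moved by less than their interval or limit, and 24 moved further. Whether a direction was reversed was not scored. Clustering, 32.3% as reported, was 24.2% when peaks had to overlap by 50% and 28.1% at an Enrichment of at least 2 in both replicates, and 37.0% when midpoints were linked at 50 kb. Sharing of the peaks outside genes fell to 22.5% in replicate 1 and 62.1% in replicate 2 with the 50% overlap, and to 24.4% in replicate 1 at an Enrichment of at least 2. The median distance, 899 bp as reported, was 1289 bp with the whole interval outside genes, 1582 bp with both parent peaks outside genes, and 1486 bp to protein-coding genes alone. The share downstream was 56.2% with both parent peaks outside genes and 44.2% among protein-coding genes, and the width was 273 bp with both parent peaks outside genes. The motif share was 40.9% for GGACT in place of GGAC, and 9 intervals matched a transcript at 95% identity over 80%. Using the peaks of 1 replicate alone gave 615 to 1741 intergenic peaks, a share downstream of 48.8% to 54.7%, a median distance of 953 to 1819 bp, a width of 307 to 309 bp and a clustering of 32.7% to 53.6%, the higher value being that without replicate 2 for all of these but the width. In settings chosen after seeing the data, 195 intervals stayed outside RefSeq genes too, with 45.1% downstream and a median Enrichment of 3.89 in replicate 1, and intervals with under 50% repeat bases had a median distance of 701 bp and a median Enrichment of 2.65 in replicate 2. The causes were not tested. No paired analysis was possible because no result comes from a test, and both replicates are of 1 condition. The lists give neither strand nor depth, so which strand carried the RNA and what the depth could miss are unknown.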

Other observations

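Peaks outside genes that were not shared differed between the replicates. In replicate 1, the 1241 unshared peaks outside genes had a median Enrichment of 3.48, close to the 3.55 of the 500 shared ones, and 36.7% of them had at least 50% repeat bases, against 16.6% of the shared ones. In replicate 2, the 124 unshared peaks had a median of 2.40 against 2.86 for the 491 shared ones, and 13.7% against 18.5% had at least 50% repeat bases. Inside genes, unshared peaks with at least 50% repeat bases made up 13.8% in replicate 1 and 1.61% in replicate 2, so repeat-rich unshared peaks were more frequent in replicate 1 inside and outside genes. The median width of the unshared peaks outside genes was 283 bp in replicate 1 and 264 bp in replicate 2, and that of the shared ones was 421 and 323 bp.

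Among the 511 intervals, 12 aligned to another of them with at least 90% identity over at least 50% of their bases. The pair next to the pseudogenes Pabpc1l2a-ps and Pabpc1l2b-ps on chromosome X aligned at 99.6% identity over 284 bases, and the pair next to Gm21769 and Gm21182 at 98.3% over 300 bases. Reads that fit both copies alike cannot be mapped uniquely.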
